A study of Mus musculus with 6 samples.

Results

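The Wdr genes, whose names stand for WD repeat domain, were examined in the livers of insulin resistant (IR) mice given insulin or its vehicle. Members were the rows of the count table whose gene name starts with Wdr and a digit, leaving out pseudogenes (names with -ps) and antisense or opposite-strand names (ending in os), with no use of measured values. This gave 63 of the 54532 genes listed, and 51 of them passed the filter on low counts that left 13377 genes for testing. The livers came from male C57BL/6J mice that had eaten a high-fat diet (HFD) for 6 weeks from 8 weeks of age, the treatment that made all of them IR. All mice were fasted for 16 h and then given insulin (IR insulin, 3 mice, 0.75 units per kg, intraperitoneal) or its carrier bovine serum albumin (BSA, IR vehicle, 3 mice), and the livers were collected 6 h after that. The comparison asks which liver transcripts differ after insulin in mice that are already insulin resistant. Wdr6 is the member that the study chose as a candidate with the help of these libraries, so its values are a description and not independent evidence of its direction.

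A WD repeat is a short stretch of protein that folds into a blade of beta strands, and several blades close into a ring called a propeller. Propellers rarely catalyse a reaction. They hold other proteins together, which is why Wdr proteins appear as subunits of machines as different as tRNA methyltransferases, ribosome assembly complexes, histone methyltransferases, ubiquitin ligases, the endosome and autophagy machinery, and cilia.

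Library totals ran from 18449986 to 21827619 counts, and the family took 0.0884 to 0.109% of the counts of a library. IR vehicle replicate 2 stood apart from the other libraries. Its log2 expression minus the median of the other 5 libraries fell with the GC content of a gene's longest transcript. The slope was -1.13 for each 10 percentage points, where those of the other 5 libraries, taken the same way, lay between -0.064 and 0.19. IR vehicle replicate 2 had counts for 16470 genes, where the others had 18389 to 18874. Every member tested is drawn with and without this library in the plot of log2 fold changes by role. Hepatocyte markers, which define the main cell of the liver, were abundant in every library, with a summed expression of 74887 to 170550 CPM (counts brought to equal library sizes with TMM) in IR vehicle and 61783 to 77991 CPM in IR insulin, and none was at 0. The summed markers of Kupffer cells were at 223 to 325 CPM in IR vehicle and 242 to 483 CPM in IR insulin, and those of erythroid cells at 395 to 1181 CPM and 292 to 448 CPM, with 2 of the 3 erythroid genes called by the criteria given below, which called 2.86% of all genes tested. Of the hepatocyte markers 1 of 7 was called, of the 2 B cell markers tested 1, and of the Kupffer cell markers none. In whole liver, fewer cells of a type and less RNA per cell cannot be told apart.

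The promoters of the 2 members called higher after insulin are shown first. They are read from RefSeq on GRCm38.p6 (up to 250 bases before the start, cut back where an annotated exon begins) and written 5′ to 3′ on the strand of the gene, with capitals marking matches to a CCAAT box (CCAAT), a GC box (GGGCGG) or an E-box (CACGTG) on either strand. Wdr6 has 122 such bases, at chr9:108578740-108578861 on the minus strand, and Wdr81 has 250 bases at chr11:75454718-75454967 on the minus strand.

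Wdr6: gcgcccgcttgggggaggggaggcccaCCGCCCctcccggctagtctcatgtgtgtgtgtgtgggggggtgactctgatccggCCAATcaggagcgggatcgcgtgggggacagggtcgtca
Wdr81: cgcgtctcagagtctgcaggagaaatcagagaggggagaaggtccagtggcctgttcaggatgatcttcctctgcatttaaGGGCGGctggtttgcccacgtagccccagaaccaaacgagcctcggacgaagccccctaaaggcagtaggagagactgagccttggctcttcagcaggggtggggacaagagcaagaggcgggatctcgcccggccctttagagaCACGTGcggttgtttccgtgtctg

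The 26 bases nearest the RefSeq start of Wdr6 lie in an annotated exon and are left out of the printed window, and distances are counted from the RefSeq start itself. Bases farther from the start were cut as well, and the uncut window held exons of P4htm as well as of Wdr6. Which gene the motifs of the printed stretch serve was not tested. The Wdr6 window held a CCAAT box 65 bases and a reverse GC box 121 bases before that start. The Wdr81 window held an E-box 24 bases and a GC box 169 bases before the start. Over the 61 windows of 50 family genes, 11.5% held the E-box against 6.02% of all 32851 promoter windows, 37.7% against 33.8% held the CCAAT box, and 55.7% against 32.7% held the GC box. The ETS motif CGGAAG was in 44.3% of the family windows and 13.6% of all windows. It was in neither of the windows printed. The window of Wdr27, the member called lower, is not printed. Cut back at exons it had 55 bases and held none of these motifs, while its uncut window held the ETS motif. These matches describe letters in a window and not bound factors.

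Wdr transcripts ranged widely in level. Per kb of transcript, the mean over the 6 libraries ran from 0.103 to 19.1 CPM per kb with a median of 4.66 among the 51 members tested. The most abundant were Wdr45b, which binds phosphoinositides in autophagy, at 19.1 CPM per kb, Wdr1, a cofactor of cofilin in actin disassembly, at 16.5 CPM per kb, Wdr26, a subunit of the CTLH ubiquitin ligase, at 16.1 CPM per kb, and Wdr61, a subunit of the PAF1 transcription elongation complex, at 15.7 CPM per kb. These 4 do not differ in level beyond the spread of their libraries, which ran from 11.6 to 34.9 CPM per kb in Wdr45b and from 13.3 to 18.1 CPM per kb in Wdr61. The means of Wdr45b and Wdr26 were raised by IR vehicle replicate 2, their highest library, at 85.8 and 205 CPM. The order of the members was not worked out without that library. Wdr6 was 37th of 51 at 2.08 CPM per kb, with a range over libraries of 1.19 to 3.40. Its neighbour above, Wdr59, lay at 2.15 CPM per kb with a range of 1.67 to 2.83, inside that of Wdr6.

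**Figure D1:**
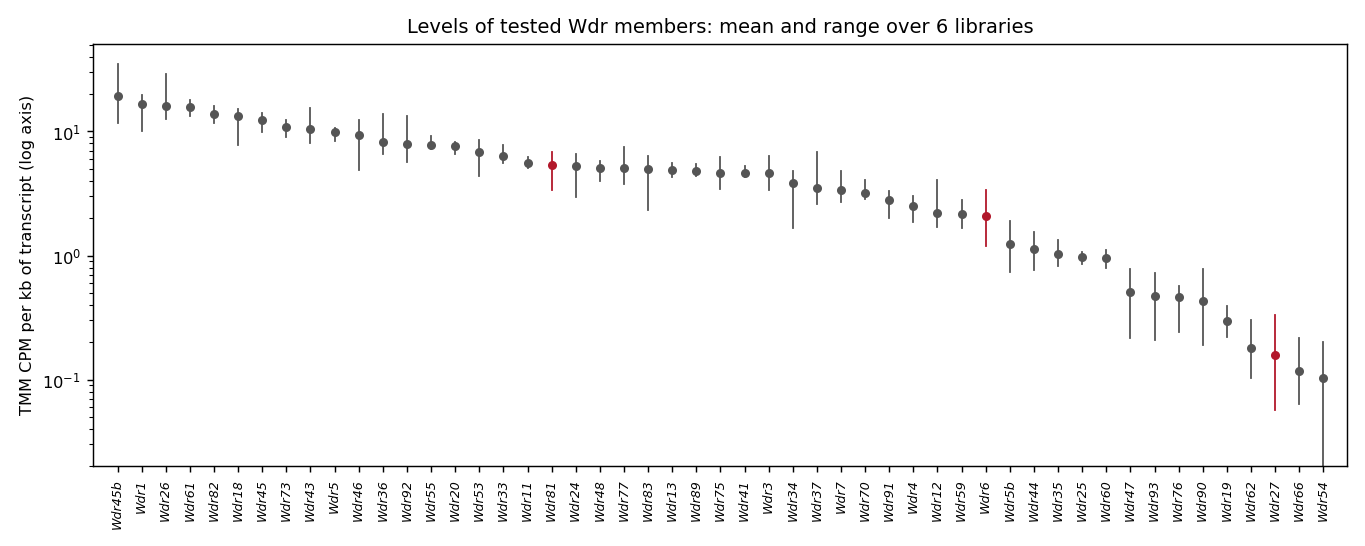
Expression of the 51 Wdr members tested, in TMM-scaled CPM per kb of longest transcript on a log axis, with points at the mean and bars over the range of the 6 libraries; red marks Wdr6, Wdr81 and Wdr27. Levels fell from 19.1 CPM per kb for Wdr45b to 0.103 CPM per kb for Wdr54, whose lowest library was at 0 so that its bar runs to the foot of the axis.

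Of the 12 members below the filter, 5 had 0 counts in all 6 libraries (Wdr17, Wdr20rt, Wdr49, Wdr64 and Wdr74), which allows up to 3 counts or 0.130 to 0.184 CPM in a library. Wdr74 acts in assembly of the large ribosomal subunit in all cells, so its row is described only as listed at 0. The other 7 had few counts. Wdr78, a dynein assembly factor of motile cilia, had 11, 6 and 8 counts in IR vehicle and 4, 6 and 9 in IR insulin, and Wdr31 had 7, 0 and 8 counts and 2, 6 and 5 counts. Wdr38 had 4, 0 and 6 counts in IR vehicle and 14, 3 and 3 in IR insulin, and Wdr86 had 1, 0 and 6 counts and 6, 1 and 8 counts. Wdr63 reached at most 2 counts in any library, Wdr72 had 4 counts in IR insulin replicate 1 and 0 elsewhere, and Wdr95 had 1 count in IR vehicle replicate 1 and 0 elsewhere. Several of these genes belong to motile cilia, and a list of motile cilia markers summed to 0.184 to 0.763 CPM in IR vehicle and 0.277 to 0.315 CPM in IR insulin, with none of its genes above the filter.

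For most Wdr transcripts the difference between insulin and vehicle livers did not exceed the spread between mice. The log2 fold change of IR insulin against IR vehicle had a median of 0.04 over the 51 members, where the median of all genes tested was -0.017. Members lay between -1.53 and 1.54, with 27 above 0 and 24 below, and standard errors (SE) ran from 0.19 to 0.82. A log2 fold change of 0.35 or more in either direction was found in 15 members (29.4%) against 41.6% of all genes tested. A gene was called when it passed this cut-off and had an unadjusted p under 0.05 in edgeR's quasi-likelihood test. The study's methods name this pair of cut-offs for differentially expressed genes. For picking candidates that respond to insulin they name a stricter pair, which was not applied here. By the cut-offs used here 3 members (5.88%) were called, beside a background of 2.86% of all genes. Wdr6 and Wdr81 were called higher (background 1.0%) and Wdr27 was called lower (background 1.86%). Wdr27 passed the filter on low counts only through IR vehicle, the group where it was higher. Without IR vehicle replicate 2 the members called were 2, Wdr6 and Wdr81, beside 508 genes called in all in place of 383. No gene passed after Benjamini-Hochberg adjustment over the 13377 genes (background 0%), where the smallest adjusted p was 0.852 in edgeR. Before adjustment edgeR had 383 genes with p under 0.05 and DESeq2 548, and DESeq2 too had 0 after adjustment.

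**Figure D2:**
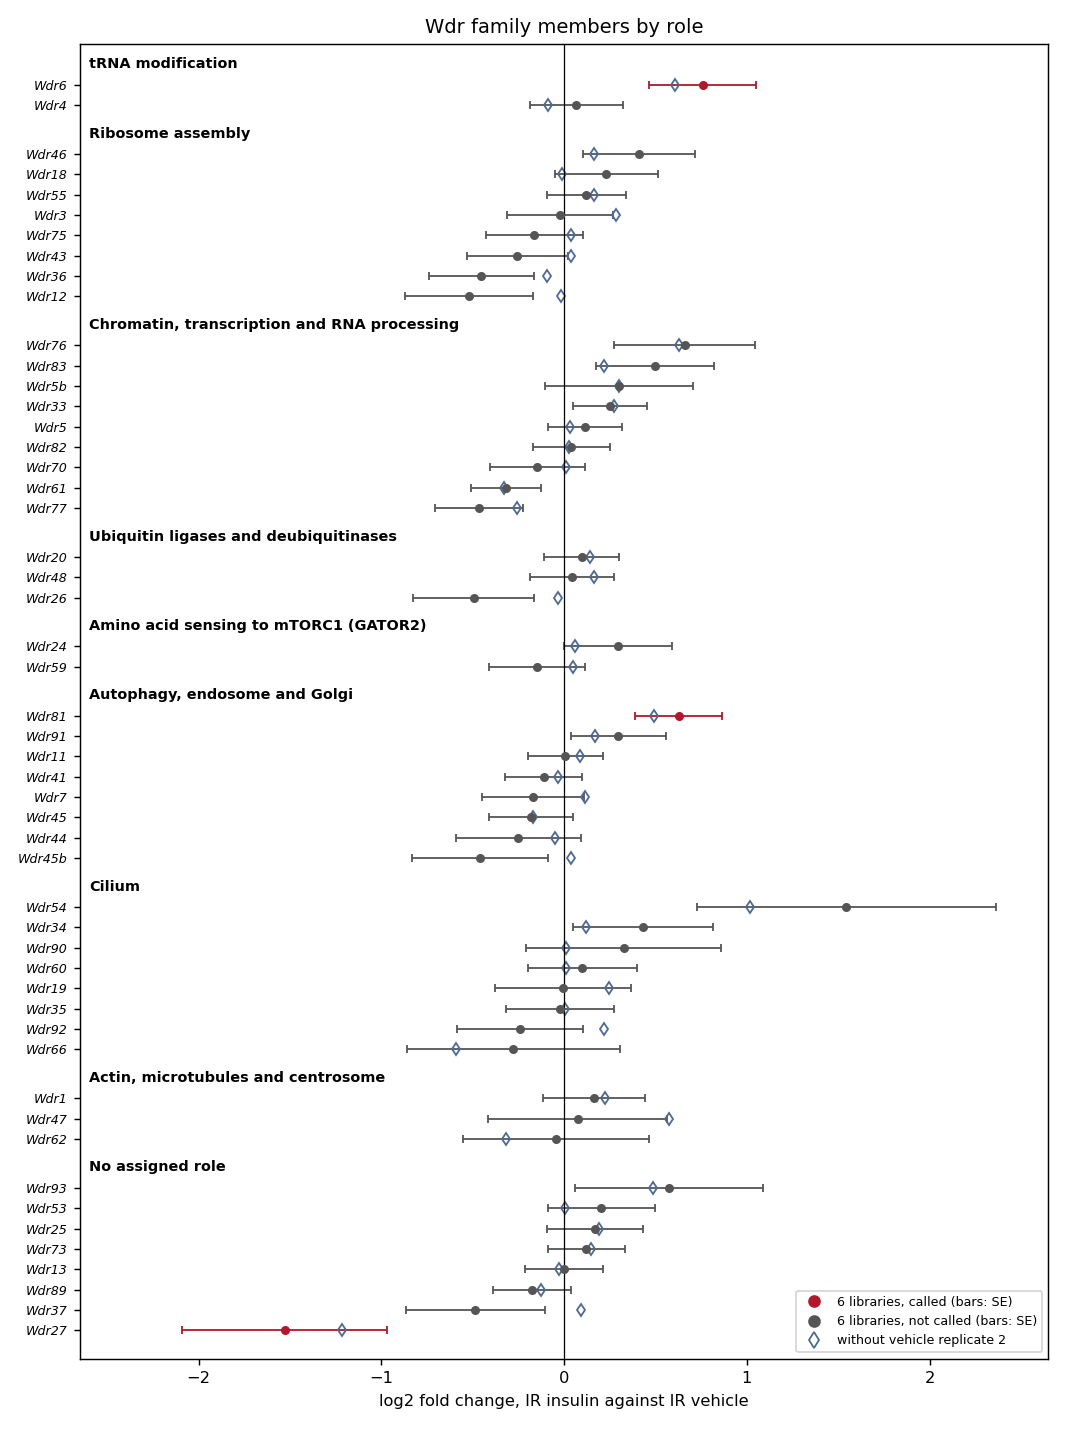
Log2 fold change of IR insulin against IR vehicle for the 51 members tested, grouped by role, with bars of 1 SE over 6 libraries and open diamonds for the values without IR vehicle replicate 2. The members called are in red (Wdr6 at 0.76, Wdr81 at 0.63 and Wdr27 at -1.53), and the other points lie between -0.52 (Wdr12) and 1.54 (Wdr54).

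In tRNA modification, Wdr6 is the partner of the methyltransferase FTSJ1, which methylates the ribose of the tRNA wobble base, and Wdr4 is the partner of METTL1, which makes 7-methylguanosine in tRNA. Wdr6 (chromosome 9, 108572311 to 108578739, minus strand, build 38) had 138, 81 and 148 counts in IR vehicle and 208, 213 and 307 counts in IR insulin. In CPM it was at 7.30, 4.97 and 7.06 in IR vehicle (mean 6.44 ± 1.28, SD, n = 3) and at 9.37, 9.22 and 14.2 in IR insulin (mean 10.9 ± 2.81, SD, n = 3). All 3 insulin libraries lay above all 3 vehicle libraries, IR vehicle replicate 2 being the lowest and IR insulin replicate 3 the highest. As a share of each library's own counts, the exact 95% interval of IR vehicle replicate 1 was 6.28 to 8.84 CPM of total counts. That of IR insulin replicate 2 was 8.49 to 11.2 CPM of total counts, so the intervals of the nearest libraries of the groups overlapped. Such an overlap does not show that the counts agree within counting error, and the libraries were not compared by a test. The log2 fold change was 0.76 with SE 0.29 (edgeR, unadjusted p = 0.0324, adjusted p = 0.852). This was the second highest log2 fold change of the family and the third smallest p, and the p ranked 184th of all genes. Without IR insulin replicate 3 the log2 fold change was 0.54 (edgeR, unadjusted p = 0.147) and Wdr6 was not called. Over 12 alternatives of the processing it ranged from 0.32 to 0.87, and the adjusted p from 0.506 to 0.998.

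Wdr6 shares 383 exonic bases, 9.2% of its own, with Dalrd3 on the opposite strand, and 8.12% of its 50-base words occur in another gene. Whether counting used strand is not given in the sources used here, so reads of the shared stretch could be counted for either gene. Dalrd3, itself a tRNA modification factor, was at 29.6, 11.5 and 31.9 CPM in IR vehicle and 29.4, 26.9 and 31.8 CPM in IR insulin. The groups overlapped and only IR vehicle replicate 2 was low among the 6 libraries. Its log2 fold change was 0.27 with SE 0.37 (edgeR, unadjusted p = 0.486), and without that library -0.062.

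Wdr4 was at 10.05, 7.80 and 12.6 CPM in IR vehicle and 10.8, 10.6 and 10.6 CPM in IR insulin, with a log2 fold change of 0.068 and SE 0.25, and -0.086 without IR vehicle replicate 2. The insulin libraries lay within the range of the vehicle libraries. Of the methyltransferases themselves, Ftsj1 was at 27.5, 40.9 and 30.0 CPM in IR vehicle and 26.4, 26.3 and 27.3 CPM in IR insulin (log2 fold change -0.30, SE 0.23, edgeR unadjusted p = 0.227). Its groups did not overlap, with IR insulin lower. IR vehicle replicate 2 was its highest library, and without it the log2 fold change was -0.11 (edgeR, unadjusted p = 0.453). Mettl1 was at 21.7, 14.4 and 11.5 CPM and at 16.1, 20.3 and 26.2 CPM, with overlapping groups (0.39, SE 0.31, edgeR unadjusted p = 0.240, and 0.33 without IR vehicle replicate 2).

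**Figure D3:**
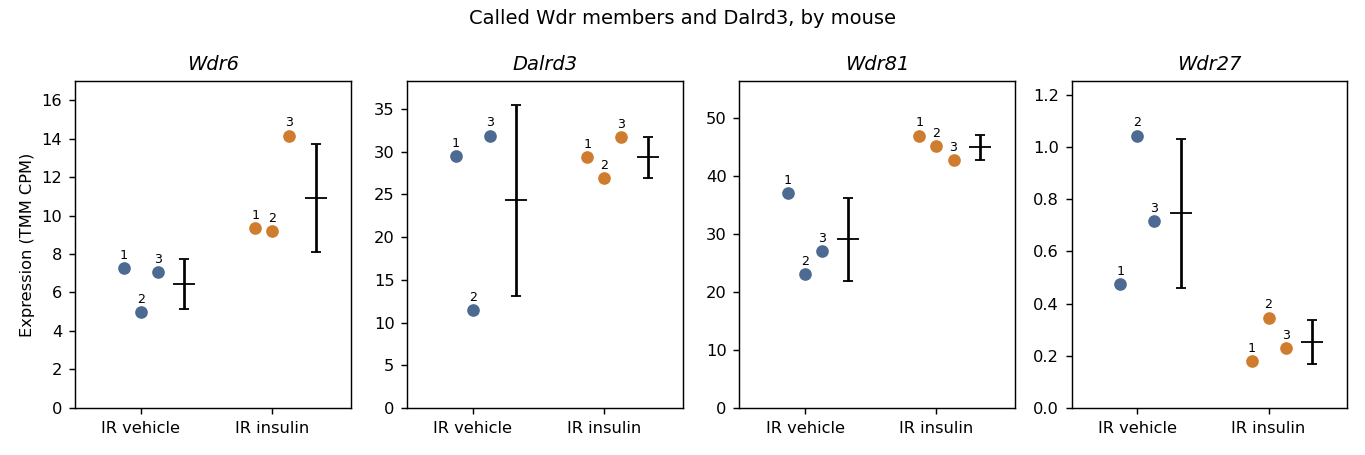
Expression of Wdr6, Dalrd3, Wdr81 and Wdr27 in TMM-scaled CPM for each mouse, numbered by replicate, with the mean and SD of the 3 mice of each group beside the points. The groups are apart in Wdr6, Wdr81 and Wdr27 and overlap in Dalrd3, where IR vehicle replicate 2 alone is low.

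Wdr81, which works with Wdr91 on endosomes to limit phosphatidylinositol 3-phosphate, was the other member called higher. It lies on chromosome 11 from 75440944 to 75454717 on the minus strand and had 700, 377 and 567 counts in IR vehicle and 1042, 1040 and 926 counts in IR insulin. Its expression was 37.0, 23.1 and 27.0 CPM in IR vehicle (mean 29.1 ± 7.15, SD, n = 3) and 46.9, 45.0 and 42.7 CPM in IR insulin (mean 44.9 ± 2.10, SD, n = 3). The insulin libraries were close together and all above the vehicle libraries, of which replicate 2 was the lowest. The log2 fold change was 0.63 with SE 0.24 (edgeR, unadjusted p = 0.0307, adjusted p = 0.852). Leaving out IR vehicle replicate 3 gave 0.58 (unadjusted p = 0.0649), and leaving out IR insulin replicate 1, 2 or 3 gave 0.60, 0.63 and 0.67 (unadjusted p from 0.0631 to 0.0971), each without a call by edgeR. With the offset for GC content described further on, the log2 fold change was 0.036 (edgeR, unadjusted p = 0.906), and with the replicate number as a block beside it 0.11 (edgeR, unadjusted p = 0.676).

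The 8 members of autophagy, endosome and Golgi traffic had a median log2 fold change of -0.14, and without IR vehicle replicate 2 of 0.061, so the sign of this median turned when that library was left out. With the offset for GC content the median was -0.13, and with the replicate block beside it -0.12. Wdr45b had the lowest value of the group. It was at 40.7, 85.8 and 36.9 CPM in IR vehicle and 42.4, 47.8 and 28.5 CPM in IR insulin, so that IR vehicle replicate 2 alone was high, and its log2 fold change was -0.46 with SE 0.37 and 0.035 without that library. Its paralog Wdr45 was at 19.4, 21.3 and 22.8 CPM and at 17.3, 22.7 and 16.0 CPM, with a log2 fold change of -0.18 and SE 0.23. The paralogs shared no 50-base word with each other, but 46.2% of those of Wdr45 also occur in Gm45208, a gene model with 0 counts in every library. The count of Wdr45 is therefore uncertain.

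Wdr27, a gene with no assigned role here, was the member called lower. It lies on chromosome 17 from 14818519 to 14943158 on the minus strand and had 9, 17 and 15 counts in IR vehicle and 4, 8 and 5 counts in IR insulin. These are 0.48, 1.04 and 0.72 CPM in IR vehicle (mean 0.745 ± 0.285, SD, n = 3) and 0.18, 0.35 and 0.23 CPM in IR insulin (mean 0.252 ± 0.0852, SD, n = 3). All 3 insulin libraries were below all 3 vehicle libraries, at a level where 10 counts come to 0.487 CPM. Wdr27 passed the filter on low counts through the IR vehicle libraries alone, where it was higher. Its call, p and lack of overlap are therefore a description and not support for a lower level. The log2 fold change was -1.53 with SE 0.56 (edgeR, unadjusted p = 0.0262, adjusted p = 0.852). Without IR vehicle replicate 2 it was -1.22 (unadjusted p = 0.0695), without IR insulin replicate 1 -1.33 (0.107) and without IR insulin replicate 3 -1.46 (0.0878), all in edgeR and none called. Without IR vehicle replicate 3 the gene fell below the filter.

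Groups that did not overlap were found in 10 members (19.6%), beside a background of 12.3% of all genes, with IR insulin higher in 7 (background 6.25%) and lower in 3 (background 6.04%). Besides the 3 members called, these were Wdr25, Wdr33, Wdr54, Wdr61, Wdr76, Wdr77 and Wdr83. Of these 7, 5 belong to the 9 members of chromatin, transcription and RNA processing, a group with a median log2 fold change of 0.11, 6 members above 0 and 3 below. This median was 0.035 without IR vehicle replicate 2. Among the members without overlap, Wdr27 and Wdr54 passed the filter on low counts only through the group in which they were higher.

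Wdr76, a nuclear protein bound to chromatin, was at 2.06, 1.41 and 1.0 CPM in IR vehicle and 2.34, 2.38 and 2.35 CPM in IR insulin. The insulin libraries were nearly level while the vehicle libraries were spread below them (log2 fold change 0.66, SE 0.39, edgeR unadjusted p = 0.126). Without IR vehicle replicate 1 the log2 fold change was 0.97 and Wdr76 was called (edgeR, unadjusted p = 0.0498). Wdr83, found in spliceosomes and as a scaffold of MAP kinase signalling, was at 13.4, 6.32 and 14.1 CPM in IR vehicle and 15.5, 15 and 17.3 CPM in IR insulin. IR vehicle replicate 2 was far below the other vehicle libraries, and the log2 fold change was 0.50 (SE 0.32) with it and 0.22 without it. Wdr33, the subunit of the cleavage and polyadenylation factor that reads the polyadenylation signal, was at 26.3, 27.1 and 25.5 CPM in IR vehicle and 28.5, 30.1 and 35.3 CPM in IR insulin (log2 fold change 0.25, SE 0.20).

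Wdr77, the partner of the arginine methyltransferase PRMT5, was at 21.9, 32.0 and 22.0 CPM in IR vehicle and 16.1, 19.6 and 19.2 CPM in IR insulin. Every insulin library was below every vehicle library, with a log2 fold change of -0.47 (SE 0.24, edgeR unadjusted p = 0.0920) and -0.26 without IR vehicle replicate 2. Wdr61 was at 57.7, 57.3 and 60.9 CPM in IR vehicle and 48.6, 47.9 and 44.7 CPM in IR insulin. Both groups were tight, and the log2 fold change of -0.32 (SE 0.19, edgeR unadjusted p = 0.135) was just inside the fold cut-off. Without IR vehicle replicate 2 it was -0.33 with an unadjusted p of 0.0466 in edgeR, still short of that cut-off. Of the 50-base words of Wdr61, 46.1% also occur in Dnaja4 on the opposite strand, as do 28.8% of those of Wdr77 and 20.8% of those of Wdr83 in other genes, so these 3 counts are uncertain. Dnaja4 itself was at 1.80, 1.41 and 1.14 CPM in IR vehicle and 2.84, 1.90 and 2.58 CPM in IR insulin, and per length at 0.648 CPM per kb was far below Wdr61.

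Wdr5, the core subunit shared by the MLL and SET1 histone methyltransferases, was at 29.7, 24.2 and 28.4 CPM in IR vehicle and 30.6, 29.7 and 28.8 CPM in IR insulin (log2 fold change 0.11, SE 0.20, and 0.035 without IR vehicle replicate 2). Its paralog Wdr5b was at 4.07, 3.01 and 2.0 CPM and at 5.18, 3.46 and 2.54 CPM (0.30, SE 0.41). The pair shared no 50-base word. The groups overlapped in both, and Wdr5 was the more abundant of the pair per length, at 9.88 against 1.23 CPM per kb.

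The 8 ribosome assembly members tested had a median log2 fold change of -0.091, between Wdr12 at -0.52 and Wdr46 at 0.41, and none was called. The median was 0.039 without IR vehicle replicate 2, so its sign turned when that library was left out. Wdr12 forms a complex with PES1 and BOP1 that matures the large subunit. It was at 17.2, 40.9 and 19.2 CPM in IR vehicle and 17.1, 18.2 and 18.6 CPM in IR insulin. IR vehicle replicate 2 was above every other library, and the log2 fold change was -0.015 without it. Wdr46, part of the small subunit processome, was at 21.3, 11 and 21.3 CPM in IR vehicle and 23.9, 20.0 and 27.4 CPM in IR insulin. Here the same library was the lowest, and the log2 fold change without it was 0.16.

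Among ubiquitin ligase and deubiquitinase cofactors, Wdr26 was at 100.4, 205 and 93.1 CPM in IR vehicle and 98.3, 96.0 and 88.8 CPM in IR insulin. Apart from IR vehicle replicate 2 its libraries were nearly level, and the log2 fold change of -0.49 (SE 0.33, edgeR unadjusted p = 0.174) was -0.031 without that library. The erythroid markers, which had their highest sum of 1181 CPM in the same library, were at 589 and 395 CPM in IR vehicle replicates 1 and 3; their part in the Wdr26 value was not tested. Wdr20, a cofactor of the deubiquitinases USP12 and USP46, was at 18.7, 18.7 and 15.7 CPM in IR vehicle and 18.8, 18.2 and 19.7 CPM in IR insulin (log2 fold change 0.097, SE 0.21). It shares 16.8% of its 50-base words with Wdr20rt, which had 0 counts, so how reads were split between the paralogs is uncertain.

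The GATOR2 members pass amino acid signals to the kinase mTORC1. Wdr24 was at 16.5, 9.33 and 18.6 CPM in IR vehicle and 17.1, 16.7 and 20.8 CPM in IR insulin (log2 fold change 0.30, SE 0.30), and Wdr59 was at 11.6, 14.4 and 8.49 CPM and at 10.4, 11.2 and 9.50 CPM (-0.15, SE 0.26). The groups overlapped in both. In these subunits of 1 complex IR vehicle replicate 2 was the lowest library of Wdr24 and the highest of Wdr59, and without it the log2 fold changes were 0.058 and 0.049.

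Of 12 cilium members, 8 were tested, with a median log2 fold change of 0.047 and none called. Wdr54 had the highest log2 fold change of the family, 1.54 with SE 0.82 (edgeR, unadjusted p = 0.0965), at a very low level. It had 8, 0 and 6 counts in IR vehicle and 16, 12 and 20 counts in IR insulin, or 0.42, 0 and 0.29 CPM against 0.72, 0.52 and 0.92 CPM. The groups did not overlap, and without IR vehicle replicate 2, which had no count, the log2 fold change was 1.02. Wdr54 passed the filter on low counts through the IR insulin libraries alone, where it was higher, so these values are a description only. Of its 50-base words 32.5% also occur in Rtkn on the opposite strand, a gene with 34, 2 and 40 counts in IR vehicle and 48, 41 and 51 in IR insulin, so the count of Wdr54 is uncertain. Wdr66, a protein of the motile axoneme, had the lowest log2 fold change of the group (-0.28, SE 0.58, and -0.59 without IR vehicle replicate 2). It was at 0.53, 0.31 and 1.05 CPM in IR vehicle and 0.68, 0.39 and 0.51 CPM in IR insulin, with overlapping groups.

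In the actin, microtubule and centrosome group, Wdr1 was at 77.3, 65.6 and 39.7 CPM in IR vehicle and 63.1, 68.2 and 73.5 CPM in IR insulin (log2 fold change 0.16, SE 0.28). The vehicle libraries spread over both sides of the insulin libraries. Wdr62, which organises spindle poles, was at 0.69, 0.49 and 1.43 CPM in IR vehicle and 0.90, 0.87 and 0.78 CPM in IR insulin (-0.046, SE 0.51, and -0.32 without IR vehicle replicate 2). Among the members with no assigned role, Wdr25 was at 4.23, 4.11 and 3.72 CPM in IR vehicle and 4.37, 4.63 and 4.57 CPM in IR insulin. Its groups did not overlap, yet the log2 fold change was only 0.17 with SE 0.26. Wdr93 had the highest log2 fold change of this group, 0.58 with SE 0.51, at 1.37, 0.74 and 0.48 CPM in IR vehicle and 0.95, 1.26 and 1.66 CPM in IR insulin.

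The fold changes of the family followed GC content. The longest transcripts of the members tested ranged from 40.1 to 59.1% GC, with a median of 48.7%, where the median of all genes was 49.3%. Over the 51 members, which share the same 6 libraries, the log2 fold change correlated with GC content with Spearman's rho = 0.62 and Pearson's r = 0.55, and rho was 0.56 over all genes tested. Over the members rho was 0.16 without IR vehicle replicate 2. The difference in log2 CPM between that library and the median of the remaining 5 had rho = -0.75 with GC content over the members and -0.67 over all genes.

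IR vehicle replicate 2 was the highest or lowest of the 6 libraries in 36 of 51 members (70.6%, against 73.2% of all genes tested). Among the 21 members under 48% GC it was the highest in 14 and the lowest in 1, and among the 30 others it was the highest in 6 and the lowest in 15. Without it, 8 members in place of 15 passed the fold cut-off of 0.35, the range was -1.22 to 1.02 and the median was 0.049. The called members Wdr6 and Wdr81 have 57.2 and 59.1% GC. Without IR vehicle replicate 2 their log2 fold changes were 0.61 (SE 0.24, edgeR unadjusted p = 0.0417) and 0.49 (SE 0.18, edgeR unadjusted p = 0.0280). With an offset that removes the trend with GC content within each library they were 0.32 (edgeR, unadjusted p = 0.252) and 0.036 (edgeR, unadjusted p = 0.906), neither called. Wdr27, at 48.4% GC, had -1.52 with the offset (edgeR, unadjusted p = 0.0232).

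**Figure D4:**
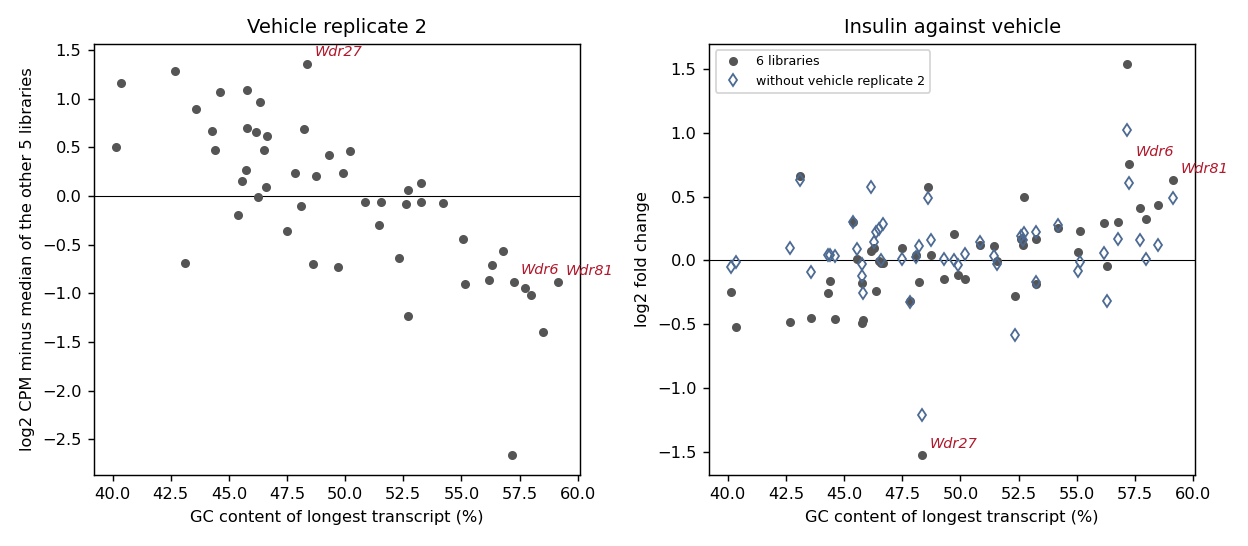
GC content of each member's longest transcript (x axis, in percent) against log2 CPM in IR vehicle replicate 2 minus the median log2 CPM of the 5 remaining libraries (left) and against the log2 fold change of IR insulin over IR vehicle with 6 libraries or without that replicate (right). The difference falls with GC content (rho = -0.75), and the rise of the log2 fold change with GC content (rho = 0.62) is smaller in the open diamonds (0.16).

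The proteins that Wdr subunits bind were read from a list of 56 genes, all of them tested. None was called by edgeR or by DESeq2, beside the background of 2.86%, and none had an unadjusted p under 0.05 in edgeR. For these genes the median log2 fold change was 0.12, with 36 genes above 0 and 20 below and values from -0.69 to 0.72. Groups did not overlap in 8 (14.3%), a share near the 12.3% of all genes tested. The smallest p was that of Setd1b, a histone methyltransferase that binds Wdr82, which was named after its values were seen. Setd1b was at 10.7, 4.60 and 11.7 CPM in IR vehicle and 15, 13.9 and 15.8 CPM in IR insulin (log2 fold change 0.72, SE 0.35, edgeR unadjusted p = 0.0748). All insulin libraries were above all vehicle libraries, and without IR vehicle replicate 2 the log2 fold change was 0.41 (edgeR, unadjusted p = 0.0346). With the offset for GC content it was 0.30 (edgeR, unadjusted p = 0.110), and with the replicate block beside it 0.30 (edgeR, unadjusted p = 0.207). Wdr82 itself was at 53.6, 49.8 and 49.9 CPM in IR vehicle and 53.7, 44.2 and 59.8 CPM in IR insulin, with a log2 fold change of 0.04 and SE 0.21. The groups of Wdr82 overlapped, with insulin libraries both above and below all vehicle libraries.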

How the data were processed

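Liver RNA of 6 HFD-fed mice was sequenced, 1 mouse per library, and the labels gave each library's group and replicate number. The table the authors deposited holds whole-number read counts per gene, neither normalized nor pooled. The authors used the NEBNext Ultra kit, an Illumina HiSeq and Bowtie 2 (version 2.2.3, per the study's methods and the submitters' processing notes) on mouse build 38; the counting program, its annotation and its use of strand are not given in the sources used here. Because Bowtie 2 does not split reads over introns, genes with many short exons can be undercounted. Of 54532 genes, 54495 (99.9%) were matched by identifier to GENCODE M21 (build 38) for coordinates, transcript length and GC content. All 6 sample columns were used.

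Genes were kept by filterByExpr (minimum count 10, minimum total 15), scaled by TMM, and tested with edgeR 4.0.16 (glmQLFit and glmQLFTest, R 4.3.3) with no covariate, and p values were adjusted over 13377 genes. CPM per kb divides by the longest transcript. DESeq2 1.42.0, RLE size factors, no filter, each library left out, a replicate block and an offset for GC content (loess, span 0.5, GC content for 13367 genes) were alternatives. The biological coefficient of variation was 0.357. Steps were tested on simulated data. Intervals (exact Clopper-Pearson, 95%) and limits of 3 counts cover counting error only. No exact permutation test was run, since with 3 libraries a group its two-sided p cannot go below 0.1.

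The family, its role groups, the partner and marker lists and the naming rule were chosen with earlier results of these data known. Named are Wdr6 and Dalrd3, members at an unadjusted p under 0.05 or without overlap of the groups, the 4 most abundant per length, the highest and lowest log2 fold change of each role group, 3 paralog pairs, members below the filter, partners called, and Ftsj1 and Mettl1. Setd1b, Wipi1, Dmxl1 and Wdr82, and genes that share sequence with a member, were named after their values were seen.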

Additional observations from a re-analysis of the deposited data

How the results depend on the processing

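Over 12 alternatives, 51 results gave 611 values, of which 506 kept their direction and their side of the threshold or stayed within the spread, 24 changed sign, 13 lost and 9 gained a call, and 59 moved. No gene had an adjusted p under 0.05 in any of them. Of the 383 genes called in all, no filter on low counts gave 742, and leaving out 1 library 99 (without IR insulin replicate 1) to 1349 (without IR vehicle replicate 1). The members called were 3, and 1 with the GC offset, with or without the block (Wdr27), and 0 (without IR insulin replicate 3) to 4 (without IR vehicle replicate 1) with 1 library left out. Over all genes the same settings called 472 with the GC offset and 335 with the offset and the block. They called 120 without IR insulin replicate 3 and 1349 without IR vehicle replicate 1. Of the partners, 0 were called, 1 with no filter, 2 with the replicate block, 1 with the GC offset and the block, and 0 to 2 with 1 library left out. The partners called were Setd1b, Wipi1 or Dmxl1. Over all genes, 742 were called with no filter, 321 with the replicate block and 335 with the GC offset and the block. With IR vehicle replicate 1, 2 or 3 left out, 1349, 508 and 888 genes were called.

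Wdr6 had a log2 fold change of 0.32 with the GC offset and 0.32 with the offset and the block, and 0.54 to 0.87 with 1 library left out. Role group medians moved with the GC offset, without and with the block, to -0.13 and -0.12 (GATOR2), -0.021 and -0.022 (chromatin), -0.056 and -0.041 (no assigned role), and 0.047 and 0.047 (tRNA modification). With 1 library left out the median of autophagy, endosome and Golgi ran from -0.16 to 0.061.

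Signs turned with the GC offset, without and with the block, in Wdr4 (-0.23, -0.22), Wdr1 (-0.10, -0.017), Wdr24 (-0.026, -0.030), Wdr25 (-0.038, -0.023), Wdr33 (-0.070, -0.032), Wdr5 (-0.021, -0.022) and Dalrd3 (-0.054, -0.047). With 1 library left out, signs turned in Wdr62 (-0.32 to 0.52), Wdr59 (-0.33 to 0.049), Wdr45b (-0.68 to 0.035), Wdr66 (-0.59 to 0.31), Wdr4 (-0.086 to 0.26), Wdr1 (-0.067 to 0.38), Wdr5b (-0.0053 to 0.58) and Dalrd3 (-0.062 to 0.51). None of these genes was called, and the cause was not tested. Only part of the family was followed over the alternatives, so these lists leave out other members. Wdr37, for example, went from -0.49 to 0.093 without IR vehicle replicate 2.

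Replicate numbers are shared between the groups, but same-numbered libraries did not deviate together (r = -0.039, 0.069 and 0.017, others -0.11 to 0.089). Each deviation was taken from a group mean, which in IR vehicle includes replicate 2. This check therefore cannot decide whether same-numbered mice were handled together. With the replicate block 321 genes were called, 203 higher and 118 lower, in place of 134 and 249, the same 3 members were called, Wdr6 had 0.75, and Wdr62 turned to 0.080. Depth limits the members with few counts, among them Wdr27, Wdr54, Wdr62, Wdr66 and the 12 below the filter. Counting error and the spread between mice were not separated.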
